A study of Mus musculus with 2 samples.

Results

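The 9 genes described here are regulators and markers of the endoderm lineages: Gata4, Gata6, Sox17, Sox7, Foxa1, Foxa2, Dab2, Pdgfra and Hnf4a. They were listed by name, with earlier results of these data known, and were found in the gene tables by Ensembl gene identifier with the version removed. All 9 were present among 43346 Ensembl genes, of which 21461 were protein-coding genes outside the mitochondrial genome. The RNA was total RNA of ES-E14, a mouse embryonic stem cell line of the 129/Ola strain from a male embryo. The series held 1 group of 2 libraries, biological replicates 1 and 2 per the labels. Both cite the same source sample, and nothing says that they came from separate cultures; their spread may therefore be technical. No allele, treatment or time point separated them. The age of the embryo is labelled unknown, and culture conditions were not given in the sources used here.

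In the mouse blastocyst the inner cell mass gives rise to the epiblast and the primitive endoderm, and FGF-ERK signalling favours the second fate. GATA6 acts early in primitive endoderm, followed by PDGFRA, SOX17, GATA4 and SOX7, and its descendants form the visceral and parietal endoderm of the yolk sacs. Definitive endoderm, the source of gut, liver and lung, arises later at gastrulation under Nodal signalling, with FOXA2 and SOX17 among its early factors. The groups used here are a simplification. Gata4, Gata6, Sox7, Dab2 and Pdgfra were placed with primitive endoderm and Foxa1, Foxa2 and Hnf4a with definitive endoderm. Sox17 belongs to both. FOXA2 and HNF4A are also known in visceral endoderm, so the groups are not exclusive.

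The gene tables held 43163300 expected counts in replicate 1 and 45573512 in replicate 2. Protein-coding genes took 54.3% and 61.5% of these counts but 18.7% and 22.9% of TPM, a gene's length-corrected portion out of 1000000 transcripts. Pluripotency genes were abundant in both libraries. All 6 checked (Pou5f1, Nanog, Sox2, Zfp42, Esrrb and Klf4) stood above 1 TPM in each, against 46.3% of protein-coding genes. Their median was 32.5 TPM in replicate 1 and 35.7 TPM in replicate 2, against 0.76 and 0.94 TPM for all protein-coding genes. Pou5f1, which encodes OCT4, stood at 162.43 and 201.07 TPM. Throughout, values are given for replicate 1 and then replicate 2.

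For Dab2, Foxa2 and Hnf4a the transcript tables separate a distal start from the start that held most of the counts, and RefSeq windows were at hand for both. For each, the stretch before the first, distal start is shown with the stretch before the main start, since the counts divided sharply between them. The sequences are 5′ to 3′ on the strand of the gene, from RefSeq on GRCm38.p6, the assembly also called mm10. Each was taken from the 250 bases before a RefSeq start and trimmed to the part outside GENCODE exons. Capitals mark each CG pair, the target of DNA methylation.
Dab2 distal, chr15:6299539-6299787, plus strand: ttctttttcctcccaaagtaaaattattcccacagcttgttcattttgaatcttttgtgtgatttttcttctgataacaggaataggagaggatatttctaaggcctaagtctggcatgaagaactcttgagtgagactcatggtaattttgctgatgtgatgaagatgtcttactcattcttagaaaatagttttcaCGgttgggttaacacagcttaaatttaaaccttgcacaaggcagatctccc
Dab2 main, chr15:6386498-6386597, plus strand: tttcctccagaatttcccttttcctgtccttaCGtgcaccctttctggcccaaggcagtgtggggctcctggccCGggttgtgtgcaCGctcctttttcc
Foxa2 distal, chr2:148046970-148047219, minus strand: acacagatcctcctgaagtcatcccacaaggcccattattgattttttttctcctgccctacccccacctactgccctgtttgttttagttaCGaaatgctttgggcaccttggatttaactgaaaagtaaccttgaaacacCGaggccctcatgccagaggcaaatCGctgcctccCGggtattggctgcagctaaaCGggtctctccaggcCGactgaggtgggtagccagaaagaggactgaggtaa
Foxa2 main, chr2:148045949-148046198, minus strand: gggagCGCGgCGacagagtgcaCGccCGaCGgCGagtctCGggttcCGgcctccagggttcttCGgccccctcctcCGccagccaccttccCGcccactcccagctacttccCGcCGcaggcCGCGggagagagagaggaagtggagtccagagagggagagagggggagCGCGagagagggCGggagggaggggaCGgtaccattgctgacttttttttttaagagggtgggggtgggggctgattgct
Hnf4a distal, chr2:163506607-163506807, plus strand: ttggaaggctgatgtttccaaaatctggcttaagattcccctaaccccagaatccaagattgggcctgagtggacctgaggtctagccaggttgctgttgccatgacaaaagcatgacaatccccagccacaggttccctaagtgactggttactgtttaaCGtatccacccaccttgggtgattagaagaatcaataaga
Hnf4a main, chr2:163546943-163547154, plus strand: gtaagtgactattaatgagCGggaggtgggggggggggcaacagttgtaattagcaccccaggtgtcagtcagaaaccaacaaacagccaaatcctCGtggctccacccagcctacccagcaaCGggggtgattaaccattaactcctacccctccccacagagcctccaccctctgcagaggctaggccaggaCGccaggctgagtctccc

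Over the full 250 bases before the RefSeq start, the distal window of Dab2 held 2 CG pairs and the main window 17, of which only 3 lie in the stretch shown, before the GENCODE start. For Foxa2 these numbers were 6 and 20, and for Hnf4a 3 and 4. The main windows of Dab2 and Foxa2 thus held more CG pairs than their distal windows, while both windows of Hnf4a were poor in them. Among 32841 RefSeq windows of the same length the median was 6 CG pairs, 23.5% held 17 or more and 18% held 20 or more. A search on both strands for the binding word of GATA factors, the letters GATA with A or T before and A or G after, found 1 match each in the distal windows of Dab2 and Hnf4a and none in the other 4 windows shown. A further Foxa2 window, before a start with 0 counts in both libraries, also held 1 match, and 13 CG pairs. The Hnf4a match runs past the end of the stretch shown. Such a word occurred in 26.5% of all windows. A match is a description of letters only. RefSeq windows were found for 5 of the 9 genes, the others being Foxa1 and Pdgfra. Gata4, Gata6, Sox17 and Sox7 had none.

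The 9 genes ran from 0.02 to 0.43 TPM in replicate 1 and from 0.08 to 2.77 TPM in replicate 2. Their median was 0.17 and 0.91 TPM, against 0.76 and 0.94 TPM for all protein-coding genes. The 9 were thus low in replicate 1 and near the common level in replicate 2. All 9 had a higher TPM in replicate 2. TPM leaned this way over all genes tested too, with a median log2 ratio of 0.29. None of the 9 reached 1 TPM in both libraries, against 46.3% of protein-coding genes. In replicate 1 none of the 9 reached 1 TPM, where 47.5% of protein-coding genes did. In replicate 2 Dab2, Pdgfra, Sox17 and Gata6 reached it, 4 of 9, against 49.3% of protein-coding genes. Sox17 did so only with short transcripts counted. Over transcripts of at least 1000 bases it stood at 0.16 and 0.75 TPM. None of the 9 was at 0 in either library. In bulk RNA, fewer cells with a transcript and less transcript per cell cannot be told apart, so these levels do not say whether all cells or a few carried the RNA. The number that reached 1 TPM in both libraries moved with the scale. When TPM was rescaled over protein-coding genes alone, Gata4, Sox17, Dab2 and Pdgfra passed in both libraries, 4 of 9, against 59.2% of protein-coding genes.

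**Figure D1:**
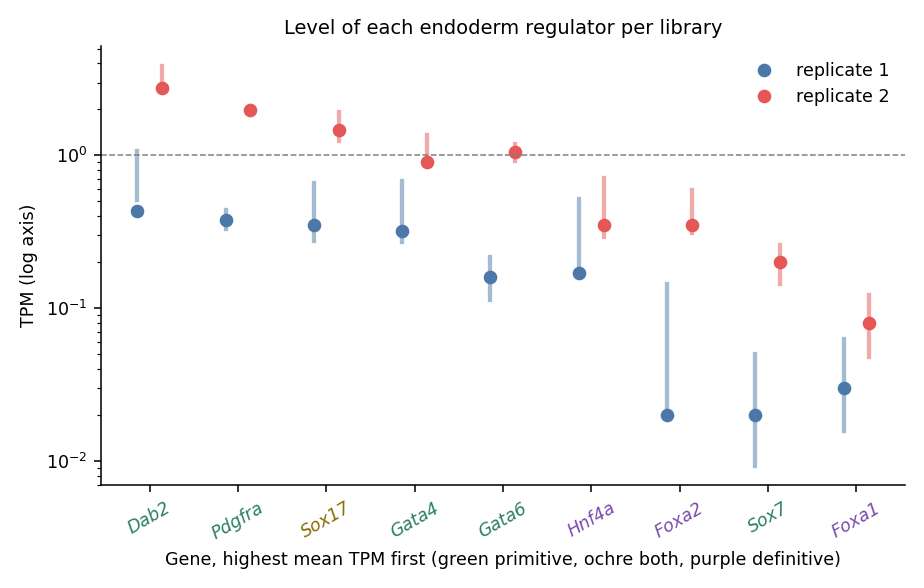
Deposited TPM (log axis) of each gene in replicate 1 (blue) and replicate 2 (red), ordered by mean TPM; vertical bars are the deposited TPM intervals, which belong to the posterior mean estimate and can therefore miss the point, and the dashed line marks 1 TPM. All replicate 1 points lie below the line, from 0.02 TPM (Foxa2, Sox7) to 0.43 TPM (Dab2), and only Foxa1 and Hnf4a have bars that overlap between the libraries.

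To compare the libraries, expected counts were scaled by edgeR's TMM factors and the ratio of replicate 2 to replicate 1 was given an exact 95% binomial interval. With 1 library on each side there is no replicate check, and the interval covers counting error only. Replicate 2 held at least 2-fold more of 7 of the 9 genes, and of none at least 2-fold less. Among 14713 protein-coding genes with a summed count of 20 or more, 6.27% stood at least 2-fold higher and 5.89% at least 2-fold lower. Within the range of the 9 genes' summed counts, 26 to 1131, these shares were 10.6% and 8.22% of 7145 genes. The median log2 ratio was 2.11 over the 9 genes and -0.01 over all genes tested. The whole counting interval lay above 2-fold for the same 7 genes, against 2.44% of genes tested. All 9 passed the minimum of 20 summed counts, but Foxa2, Sox7 and Foxa1 had only 3, 6 and 8 counts in replicate 1.

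**Figure D2:**
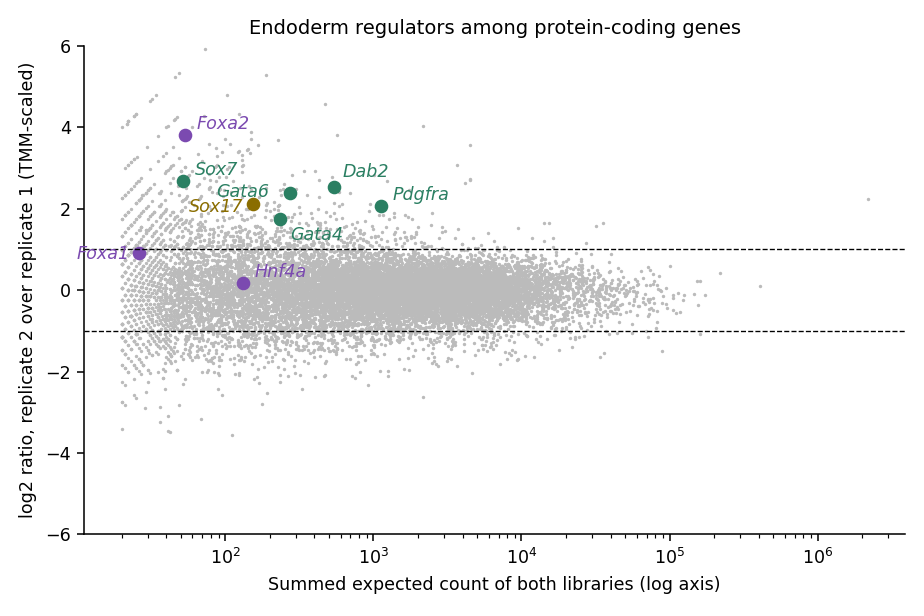
The log2 ratio of replicate 2 to replicate 1 (TMM-scaled expected counts) against the summed expected count (log axis) for the protein-coding genes tested (grey; 13 genes at 0 in a library have no ratio and are not drawn), with the 9 endoderm genes in green (primitive), ochre (both) and purple (definitive). Dashed lines mark 2-fold; 7 of the 9 genes lie above the upper line, Foxa1 (0.92) just under it and Hnf4a (0.17) near 0.

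Gata6 (ENSMUSG00000005836, chr18:11052064-11085635), an early transcription factor of primitive endoderm, had 38 and 236 expected counts and stood at 0.16 and 1.05 TPM, a mean of 0.605 ± 0.629 TPM (SD, n = 2). The TMM-scaled ratio was 5.23 (95% counting interval 3.7 to 7.58). Gata4 (ENSMUSG00000021944, chr14:63198922-63271692), a related zinc finger factor that follows it, had 47 and 188 counts and stood at 0.32 and 0.91 TPM. Its ratio was 3.37 (2.44 to 4.74), the lowest of the 5 primitive endoderm genes. Gata4 stood above Gata6 in replicate 1 and below it in replicate 2. The deposited TPM intervals were apart in replicate 1 (0.27 to 0.682 TPM for Gata4, 0.114 to 0.216 TPM for Gata6) but overlapped in replicate 2, so no order between them held in both libraries. Gata6 overlaps the antisense gene model 1010001N08Rik, which had 2 and 20 counts; whether the counting used strand was not given in the sources used here, so reads in the overlap of the pair cannot be told apart. Only 0.682% of the 50-base words of Gata6 transcripts also occur in that model.

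Sox17 (ENSMUSG00000025902, chr1:4490931-4497354) encodes a SOX factor needed in both endoderm lineages. It had 25 and 128 counts and stood at 0.35 and 1.47 TPM (0.91 ± 0.792 TPM, SD, n = 2), with a ratio of 4.31 (2.79 to 6.91). Sox7 (ENSMUSG00000063060, chr14:63943673-63950732), of the same SoxF subfamily and expressed in parietal endoderm and blood vessels, had 6 and 46 counts and stood at 0.02 and 0.2 TPM. The scaled ratio of Sox7 was 6.46, with a wide interval of 2.75 to 18.5. The deposited TPM of Sox7 gave a ratio of 10, which rests on a value rounded to 2 decimals. Both SoxF genes were thus higher in replicate 2 beyond counting error, at levels that differed between them. Of the 50-base words in Sox17 transcripts, 15% also occur in the gene model Gm37587, which had 0 counts in both libraries.

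Dab2 (ENSMUSG00000022150, chr15:6299788-6440712) encodes an endocytic adaptor that brings receptors of the LDL receptor family into clathrin-coated pits and is a long-used marker of primitive endoderm. By deposited TPM it was the highest of the 9 genes in both libraries, at 0.43 and 2.77 TPM (1.6 ± 1.65 TPM, SD, n = 2), with 69 and 477 counts. In replicate 1 this rank depended on the 476-base model Dab2-210, which took 18.53% of output on 2 counts. Over transcripts of at least 1000 bases Dab2 stood at 0.35 TPM there, against 0.38 TPM for Pdgfra. The ratio of Dab2 was 5.82 (4.52 to 7.61). Set against Pou5f1 in the same library, Dab2 stood at 0.265% and 1.38% of its TPM. Pdgfra (ENSMUSG00000029231, chr5:75152292-75198215), a receptor tyrosine kinase for platelet-derived growth factor, had the most counts, 190 and 941, and stood at 0.38 and 1.99 TPM. Its ratio of 4.17 had the narrowest interval relative to its size, 3.57 to 4.9. Both intervals lay wholly above 2-fold. Dab2 transcripts share 2.14% of their 50-base words with the gene model Gm18888, and Pdgfra transcripts 4.93% with other models.

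Foxa2 (ENSMUSG00000037025, chr2:148042877-148046969), a forkhead factor that opens chromatin in endoderm, had 3 and 50 counts and stood at 0.02 and 0.35 TPM. Its ratio of 14 was the highest of the 9, but 3 counts in replicate 1 left an interval of 4.53 to 70.4. Foxa1 (ENSMUSG00000035451, chr12:57540628-57546916), its close relative, was the lowest of the 9 by mean TPM. It had 8 and 18 counts and stood at 0.03 and 0.08 TPM, with a ratio of 1.89 (0.784 to 5.04). Hnf4a (ENSMUSG00000017950, chr2:163506808-163572910), a nuclear receptor of visceral endoderm, liver and gut, had 56 and 75 counts and stood at 0.17 and 0.35 TPM. The scaled ratio of Hnf4a was 1.13 (0.787 to 1.62). The intervals of Foxa1 and Hnf4a included 1, so a difference between the libraries was not detectable for these genes at this depth. For Hnf4a the deposited TPM gave 2.06, outside the counting interval; the TPM of this gene turned on 1 short transcript, described with the transcripts.

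Ordered by mean TPM the genes ran Dab2, Pdgfra, Sox17, Gata4, Gata6, Hnf4a, Foxa2, Sox7 and Foxa1. Of the 8 pairs of neighbours, only Dab2 and Pdgfra had deposited TPM intervals apart in both libraries (0.507 to 1.07 against 0.331 to 0.439 TPM in replicate 1). Pdgfra against Sox17, and Sox17 against Gata4, overlapped in both. The other 5 pairs were apart in 1 library and overlapped in the other. For Dab2 and Pdgfra the bounds belong to the posterior mean TPM, 0.78 and 0.38 in replicate 1. The deposited TPM of Dab2 in that library, 0.43, lay below its own interval and inside that of Pdgfra. Over transcripts of at least 1000 bases Dab2 (0.35 TPM) stood below Pdgfra (0.38 TPM) in replicate 1. On that measure Sox17 (0.16 and 0.75 TPM) also stood just below Gata4 (0.17 and 0.77 TPM).

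Primitive endoderm genes stood above definitive endoderm genes within each library. Their median level was 0.32 against 0.03 TPM in replicate 1 and 1.05 against 0.35 TPM in replicate 2. On the scale of log2(TPM + 0.1), the difference of the medians was 1.69 in replicate 1, 1.35 in replicate 2 and 1.33 for the mean TPM. Genes are not replicates, so no test was made. The sum over the 5 primitive endoderm genes was 1.31 and 6.92 TPM, and over the 3 definitive endoderm genes 0.22 and 0.78 TPM. Sox7 was the exception: by mean TPM the other 4 primitive endoderm genes stood above all 3 definitive endoderm genes, while Sox7 stood below Hnf4a and Foxa2. In replicate 1 Gata6, at 0.16 TPM, was also below Hnf4a at 0.17 TPM. The size of the difference depended on how groups were drawn and on the pseudocount: it was 1.76 with Hnf4a counted as primitive and 0.45 with a pseudocount of 1 TPM.

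Between the libraries the ratios of the groups overlapped in range. All 5 primitive endoderm genes were past 2-fold, with a median log2 ratio of 2.39, and Sox17 stood at 2.11. Of the 3 definitive endoderm genes only Foxa2 was past 2-fold, and their median was 0.92. The share past 2-fold was 6.27% of genes tested and 10.6% within the 9 genes' range of summed counts. Only the interval of Hnf4a, 0.787 to 1.62, lay below those of all primitive endoderm genes. The Foxa2 ratio, 14, was the highest of the 9 genes. Foxa1 missed 2-fold at 1.89, with an interval of 0.784 to 5.04 on 8 and 18 counts. In TPM all 9 genes stood at least 2-fold higher, against 11.4% of genes tested. The difference between the groups was not tested.

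**Figure D3:**
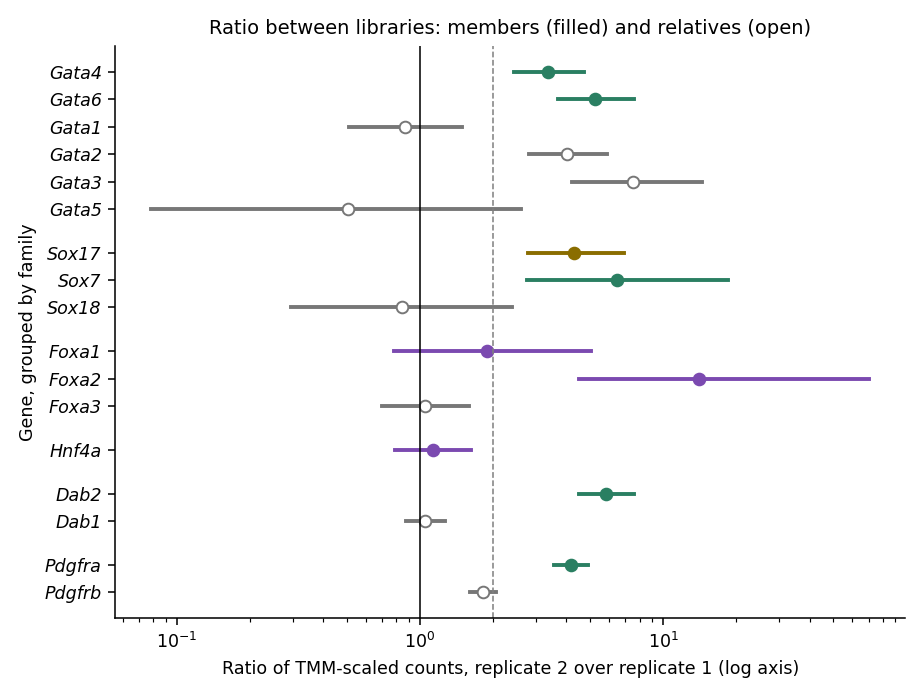
Ratio of TMM-scaled expected counts, replicate 2 over replicate 1 (log axis), with 95% counting intervals for the 9 genes (filled; green primitive, ochre both, purple definitive) and their relatives (open), grouped by family; the solid line marks 1 and the dashed line 2. Gata2 (4.01) and Gata3 (7.52) lie with Gata4 and Gata6 above 2, while Gata1, Foxa3 and Dab1 have intervals that include 1.

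Relatives of the 9 genes gave a reference within each family. Of 9 relatives, 6 had a summed count of 20 or more, and 2 of these stood at least 2-fold higher in replicate 2, none lower. Gata2, a factor of blood and trophoblast, had 37 and 176 counts (0.15 and 0.77 TPM) and a ratio of 4.01 (2.8 to 5.88). Gata3, a trophoblast and lymphoid factor, had 13 and 116 counts (0.07 and 0.53 TPM) and a ratio of 7.52 (4.23 to 14.5). The blood factor Gata1 (30 and 31 counts) had a ratio of 0.87 (0.51 to 1.49), and Gata5 had 5 and 3 counts. Higher values in replicate 2 were therefore not limited to the endoderm members of the GATA family, nor shared by all members. Foxa3, also a liver factor, had 45 and 56 counts and a ratio of 1.05 (0.695 to 1.59). Sox18, a SoxF gene of blood vessels, had 9 and 9 counts, and Hnf4g had 0 in both libraries. Dab1, a neuronal adaptor, stood at 1.64 and 1.89 TPM with a ratio of 1.05 (0.872 to 1.27), against 5.82 for Dab2. Pdgfrb stood at 0.95 and 2.15 TPM, with a ratio of 1.81 (1.6 to 2.05) that lay below that of Pdgfra with no overlap of the intervals.

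The transcript tables show how expected counts at these low levels were assigned to forms. Reads in exons that forms share cannot by themselves tell the starts apart, so shares per start are estimates. Gata6, Sox7 and Foxa1 had 1 transcript each. All Foxa2 counts, 3 and 50, fell on Foxa2-202, which starts 1021 bases downstream of the first start; Foxa2-201 and Foxa2-204, which use the distal start, had 0 in both libraries. For Dab2 the distal start held 7 and 5.64 counts, 10.1% and 1.18% of the gene, and the start 86810 bases downstream held 60 and 459 counts, 87% and 96.1%. The gain of Dab2 counts in replicate 2 was thus assigned to transcripts of the downstream start. For Hnf4a the distal start, represented by Hnf4a-205, had 0 counts in both libraries, and the start 40379 bases downstream held 100% and 94.1%. Hnf4a-205 is a model of 431 bases, so reads of a longer transcript from this start would have been counted elsewhere.

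**Figure D4:**
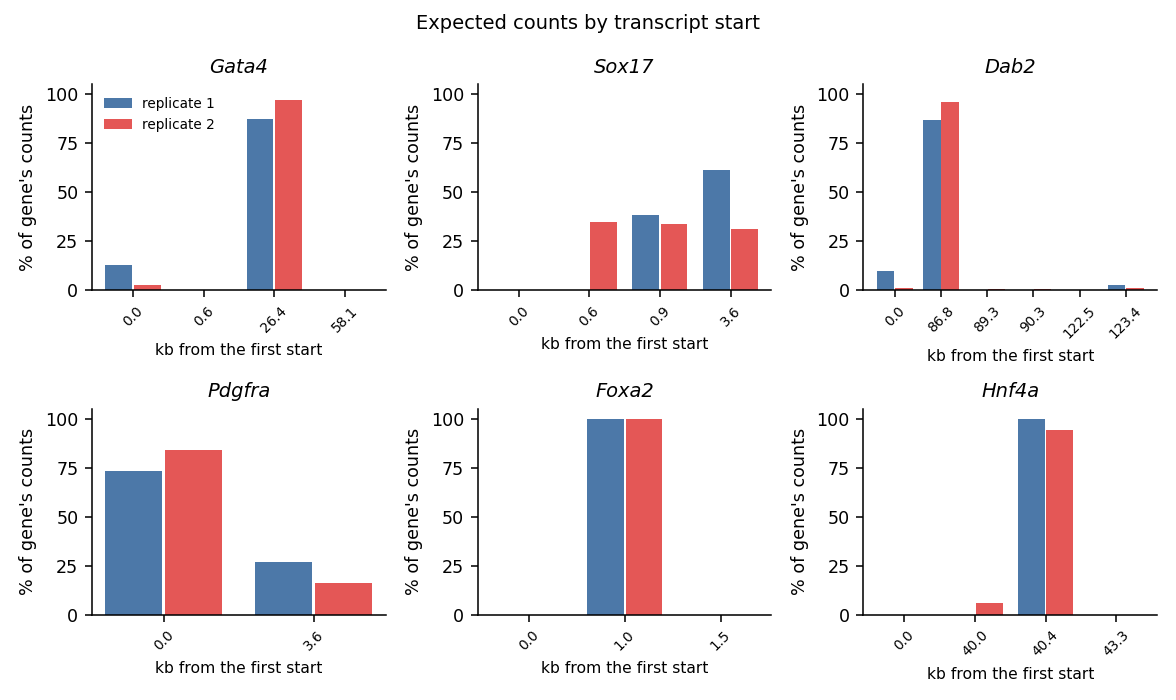
Share of each gene's expected counts (%) by transcript start in replicate 1 (blue) and replicate 2 (red), for the 6 genes with several transcripts; the x axis gives the distance of each start from the first start in kb, with starts within 300 bases joined. Gata4, Dab2, Foxa2 and Hnf4a each have 1 start with at least 87% of counts in both libraries, and neither the Foxa2 nor the Hnf4a distal start holds any.

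Gata4 counts fell mostly on the start 26421 bases downstream of the first, 87.3% and 97.2%. Its leading transcript Gata4-202 took 27.3% and 65.99% of the deposited output (46.6 ± 27.4%, SD, n = 2), and Gata4-204 took 48.6% and 15.59%. Gata4-204 is 653 bases long and had only 5.97 and 5.17 counts. Short transcripts weigh heavily in a length-corrected share. Over transcripts of at least 1000 bases, Gata4 stood at 0.17 and 0.77 TPM, a ratio of 4.53 against 2.84 for the whole gene. The same holds for Hnf4a in replicate 2, where the 659-base Hnf4a-203 took 34.42% of the output on 4.41 counts. Without short transcripts Hnf4a stood at 0.17 and 0.22 TPM, a ratio of 1.29. The full-length Hnf4a-201 took 99.27% and 64.76% of output.

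Output of Sox17 was spread over several forms. Sox17-204, of 840 bases, took 52.08% and 48.15% (50.1 ± 2.78%, SD, n = 2) and Sox17-202 took 18.22% and 21.32%. Sox17-204 had 9.6 and 35.65 counts. Over transcripts of at least 1000 bases Sox17 stood at 0.16 and 0.75 TPM, a ratio of 4.69. Sox17-208, which starts 597 bases from the first start, had 0 counts in replicate 1 and 44.45 in replicate 2. With 25 counts in replicate 1 for the whole gene, such a shift between forms rests on few reads. Among Dab2 transcripts, Dab2-203 took 19.15% and 45.53% of the output and Dab2-208 took 38.63% and 14.49%. The order of these forms changed between the libraries. Pdgfra had the best-covered forms: Pdgfra-201 took 73.2% and 84.14% and Pdgfra-202, which starts 3593 bases downstream, 26.8% and 15.86%.

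Genes that act with the 9 were counted from lists of their pathways. Of all genes tested, 6.27% were at least 2-fold higher and 5.89% at least 2-fold lower. Within the 9 genes' range of summed counts these shares were 10.6% and 8.22%. The lists were drawn with earlier results of these data known, so the shares are a reference and not a test. Among 16 genes of visceral and parietal endoderm, 12 were tested, 9 were at least 2-fold higher in replicate 2, none lower, with a median log2 ratio of 1.27. Cubn, which encodes the endocytic receptor cubilin, went from 333 to 3314 counts (0.39 and 4.22 TPM), a ratio of 8.38 (7.49 to 9.41). Plat, tissue plasminogen activator, stood at 1.46 and 6.32 TPM with a ratio of 3.46. Foxq1 (4.35), Aqp8 (3.16) and Thbd (3.02) also had ratios above 3. Lrp2, the megalin receptor that DAB2 binds, was the highest of the list at 20.21 and 29.32 TPM, but its ratio was 1.15. Of the secreted products of visceral endoderm, Afp had 2 and 6 counts, Ttr and Apoa4 0 and 1, and Apoa1 8 and 7. The retinol carrier gene Rbp4, with 42 and 37 counts (0.67 and 0.63 TPM), had a ratio of 0.742 (0.464 to 1.18), the only tested gene of the list below 1.

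Basement membrane genes, which parietal endoderm makes in bulk, were far more abundant. Of 7 tested, 2 stood at least 2-fold higher and none lower, with a median log2 ratio of -0.04. The pair was Col4a1 (14.88 and 42.08 TPM, ratio 2.23) and Col4a2 (7.81 and 22.91 TPM, ratio 2.29), the type IV collagen chains. The highest, Sparc (89.45 and 113.48 TPM), Lamc1 (78.9 and 74.03 TPM) and Lamb1 (59.94 and 56.74 TPM), had ratios of 1.33, 0.705 and 0.754. Among 7 partners of DAB2 in endocytosis only Cubn stood 2-fold higher and none lower. Its clathrin partners Ap2m1 and Cltc had ratios of 1.38 and 1.63.

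Of 10 other definitive endoderm and gastrulation genes 6 were tested, 2 stood at least 2-fold higher and 1 lower, with a median log2 ratio of 0.32. Higher were Eomes (55 and 179 counts, ratio 2.74) and T (33 and 90 counts, ratio 2.3). Lower was Trh, a hormone precursor gene known in early definitive endoderm, at 268.09 and 114.42 TPM and a ratio of 0.342. Trh held nearly all of this list's summed level of 270 and 118 TPM. Cxcr4, a chemokine receptor used to sort endoderm, stood at 0.3 and 0.7 TPM with a ratio of 1.48. Cer1 had 0 counts in both libraries, and Gsc, Mixl1 and Lhx1 were under the count minimum.

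No gene of the upstream FGF, Nodal and PDGF lists stood 2-fold higher in replicate 2. None of 8 FGF-ERK genes stood 2-fold apart (median log2 ratio -0.27). Fgf4 stood at 51.43 and 33.93 TPM (ratio 0.529), Fgfr1 at 19.01 and 20.6 TPM (0.883) and Spry2 at 13.28 and 11.47 TPM (0.692). Dusp6 (1.52) and Grb2 (1.45) went the other way, with counting intervals above 1. Of 8 Nodal pathway genes none stood 2-fold higher and 2 lower, with a median of -0.43. These were the co-receptor gene Tdgf1 (318.39 and 197.95 TPM, ratio 0.498) and the receptor gene Acvr2b (0.487). Nodal itself stood at 53.19 and 37.86 TPM (0.57) and its nuclear partner Foxh1 at 12.68 and 14.88 TPM (0.939). Smad2 (1.35), Smad3 (1.35) and Smad4 (1.26) went the other way, with counting intervals above 1. Of 5 genes of the PDGF family none was 2-fold apart (median -0.18). Pdgfa, the ligand of PDGFRA, stood at 16.97 and 20.74 TPM with a ratio of 0.977, against 4.17 for its receptor. Pdgfc and Pdgfb had ratios of 0.883 and 0.787. Among the 6 pluripotency genes none was 2-fold apart and the median was -0.01. Pou5f1 had a ratio of 0.995, Sox2 0.989 and Zfp42 1.18. Nanog was higher in replicate 2 at 1.51 (1.44 to 1.59). Klf4 at 0.631 (0.596 to 0.668) and Esrrb at 0.785 (0.757 to 0.813) were lower.

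**Figure D5:**
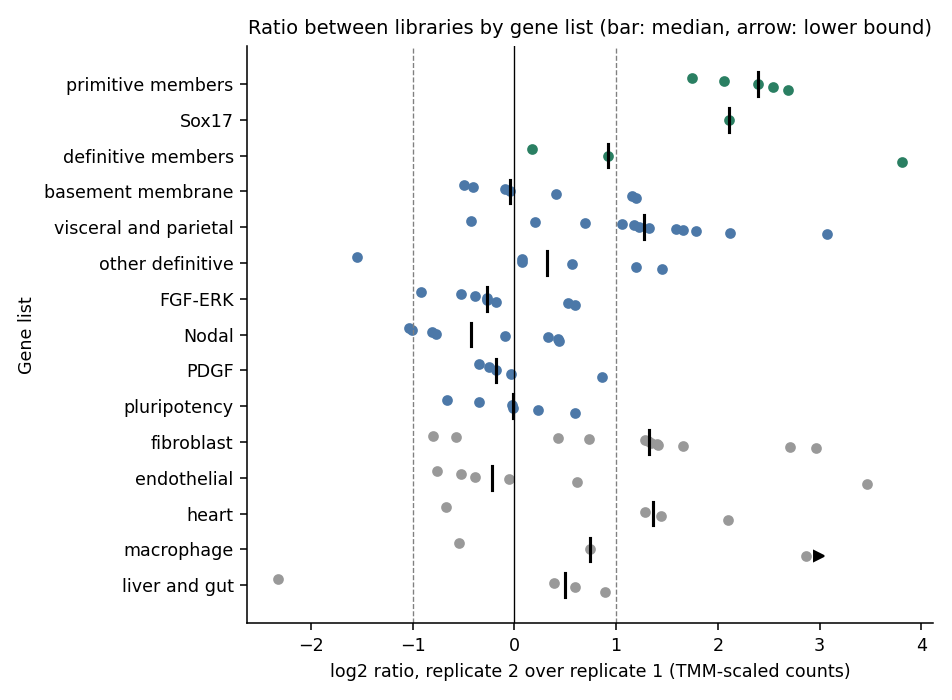
The log2 ratio of replicate 2 to replicate 1 (TMM-scaled expected counts) for each tested gene of each list, with the median as a black bar; the endoderm genes are green, pathway lists blue and markers of other cell types grey, the arrow marks Ptprc, drawn at its lower bound, and dashed lines mark 2-fold. The primitive endoderm genes all lie right of the upper line, as do 9 of 12 visceral and parietal endoderm genes and 8 of 12 fibroblast markers.

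Markers of other cell types moved with these ratios in part. Of 13 fibroblast markers 12 were tested, 8 were at least 2-fold higher in replicate 2, none lower, with a median log2 ratio of 1.32, against 1.27 for the visceral and parietal endoderm list. Their summed level was 204 and 281 TPM. Col3a1 (1.21 and 10.47 TPM) had a ratio of 6.54, Prrx1 (10 and 93 counts) 7.83, Col1a1 (7.21 and 28.84 TPM) 3.15 and Acta2 (33.04 and 100.23 TPM) 2.43. The highest, Fn1 (154.13 and 122.22 TPM), had 0.675. Thy1 (278 and 189 counts) had 0.573 (0.473 to 0.691), and these were the only tested fibroblast markers below 1. Fbn1 (1.35) and Twist2 (1.66) lay between 1 and 2-fold, and Lum was at 0 in both libraries. Of 7 heart markers 4 were tested and 3 stood 2-fold higher, none lower: Hand1 (0.28 and 1.5 TPM, ratio 4.3), Nkx2-5 (0.21 and 0.7 TPM, 2.72) and Tnnt2 (0.13 and 0.58 TPM, 2.42). Their summed level was 1.32 and 3.42 TPM, with a median log2 ratio of 1.36, and Myh6 (0.66 and 0.52 TPM) had a ratio of 0.63. Gata4, which is also a heart factor, was counted with endoderm only.

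Endothelial markers, which matter for Sox7 and Sox17, stood at 28.5 and 27.4 TPM in sum. Of 8, 6 were tested and 1 stood 2-fold higher, none lower: Cdh5, VE-cadherin, with 10 and 132 counts (0.03 and 0.47 TPM) and a ratio of 11.1 (5.86 to 23.7). The median log2 ratio was -0.22. Pecam1 (23.63 and 22.04 TPM), which stem cells also express, had a ratio of 0.692, Tek 0.59 and Flt1 0.963. Of 5 macrophage markers, 6.29 and 5.78 TPM in sum, 3 were tested and 1 stood 2-fold higher, none lower (median 0.74): Ptprc had 0 and 26 counts and was at least 7.3-fold higher with replicate 1 set to a floor of 3 counts. Its exact 95% counting interval began at 5.52. Cd68, at 6.14 and 5.3 TPM, held most of the macrophage sum and had a ratio of 0.683. Csf1r, at 0.14 and 0.3 TPM, had a ratio of 1.67. Of 6 liver and gut markers, 0.92 and 1.79 TPM in sum, 4 were tested, none stood 2-fold higher and 1 lower (median 0.49), Onecut1 with 42 and 10 counts and a ratio of 0.201. Cdx2 had a ratio of 1.86 and Apob 1.31, and Alb had 0 and 1 counts. The part of these cell types in the higher values of the 9 genes was not tested.

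The ratio between libraries also moved with base composition. With genes divided into 10 equal groups by the GC content of their longest transcript, the median log2 ratio was 0.20 in the lowest group and -0.28 in the highest. The 9 genes had a GC content from 45.7% (Dab2) to 57.4% (Gata4). Medians in their own GC groups were between -0.24 and 0.11, and 4.15% to 7.61% of genes in those groups stood at least 2-fold higher in replicate 2. The 7 genes past 2-fold had log2 ratios from 1.75 to 3.81. Over all genes tested the median log2 ratio was 0.29 in TPM. Of genes at least 2-fold apart, 51.5% were higher in replicate 2 with TMM, against 78.8% in TPM. In TPM all 9 endoderm genes stood at least 2-fold higher in replicate 2, against 11.4% of genes tested, and 3.05% of genes tested stood at least 2-fold lower.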

How the data were processed

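Total RNA-seq of 2 ES-E14 libraries was used. A deposited text file names mm10, the M4 annotation and alignments to the transcriptome, from which each library was quantified. The aligner, quantifier and strand setting: not given in the sources used here. Per the file headers the tables give, for each gene and transcript, an expected count, TPM, FPKM, an effective length and, as signal values of the authors, a posterior mean TPM with interval bounds whose level is not given. The deposited transcript tables also give each transcript's percent of gene output. FPKM and posterior means served as alternatives only.

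Symbols and coordinates came from GENCODE M21 (GRCm38), which matched 42462 of 43346 genes. Depth was 43163300 and 45573512 expected counts. The TMM-scaled library sizes, over protein-coding genes only, were 23513601 and 27918678. A floor of 3 counts equals 0.128 and 0.107 per 1000000 of these scaled counts. Expected counts were rounded for the ratio, which used TMM factors (edgeR 4.0.16, R 4.3.3) and exact Clopper-Pearson 95% intervals (scipy 1.17.1, Python 3.11.15); DESeq2 1.42.0 size factors were an alternative. Intervals and floors cover counting error only. Genes tested were protein-coding, outside the mitochondrial genome, with a summed count of 20 or more. The 26248 rows named by a number alone were left out.

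The 9 genes, their groups and all lists were chosen with earlier results of these data known. The rule named all 9 genes, their relatives, both highest transcripts of each, and of each list the 3 highest by mean TPM and those at least 3-fold apart; other listed genes were named after their values were seen. 2 genes first placed in these lists are not reported here, and counts and medians are without them. The GC comparison, the joining of starts within 300 bases and TPM over transcripts of 1000 bases or more were added after seeing the data.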

Additional observations from a re-analysis of the deposited data

Results flagged for a closer look

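Rows named by a number alone, which no comparison used, held 15 expected counts in replicate 2 and 1 in replicate 1. The value of replicate 2 lies above the limit of 3 counts that a count of 0 allows. None of the 9 endoderm genes is among these rows.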

How the results depend on the processing

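The number of the 9 genes that reached 1 TPM in each library, 0, became 4 with TPM rescaled to protein-coding genes, and ranged from 0 to 4 when 1 library was left out, since 4 genes passed in replicate 2 alone. It was 0 at limits of 0.5 and 5 TPM. The difference of medians between primitive and definitive endoderm genes, 1.33 on the log2 scale, kept its direction in all settings run. It was 1.58 with Sox17 counted as primitive, 1.76 with Hnf4a counted as primitive, 0.45 with a pseudocount of 1 TPM, 1.68 with one of 0.01 TPM, 1.68 with rescaled TPM, and 1.57 with means; leaving out 1 library gave 1.35 to 1.69. The number at least 2-fold higher in replicate 2, 7, ranged from 5 (of the 6 genes with a summed count of 100 or more) to 9 (TPM). Of the single-gene ratios 42 moved by less than their interval and 3 by more: Pdgfra, 5.24 in both TPM settings, and Hnf4a, 2.06 in TPM. No paired analysis was possible because the series has 1 group. Counts of 3 to 8 in replicate 1 limit Foxa2, Sox7 and Foxa1, and no comparison had a replicate on either side.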
